A study of Sus scrofa with 2 samples.

Results

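HDC and SLC18A2, the genes for histamine synthesis and for vesicular storage of monoamines, were described in single cells of pig endometrium, the inner lining of the uterus. They are 2 of the 26881 features of the deposited matrices (ENSSSCG00025017740 for HDC and ENSSSCG00025026116 for SLC18A2) and were chosen by name because earlier readings of the same matrices had shown a difference between the libraries. Their levels are therefore given as a description, with no test. The EL library came from a Yorkshire sow that had aborted before and then failed to conceive at 3 successive inseminations (embryo loss). The EIS library came from a Yorkshire sow on day 30 of a pregnancy that had followed insemination (embryo implantation), and both sows were 3 years old. The labels give no stage for the EL sow. Each group is 1 sow and 1 library of 10x Genomics droplets, so sow, pregnancy, stage and library cannot be told apart, and the intervals given reflect counting error alone.

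HDC encodes histidine decarboxylase, the enzyme that makes histamine from histidine with pyridoxal phosphate as its cofactor. SLC18A2 encodes the vesicular monoamine transporter VMAT2, which exchanges protons for histamine, serotonin, dopamine or noradrenaline at the vesicle membrane and so loads these amines for release. Mast cells and the histamine cells of the stomach are known for holding both. In the uterus histamine has been ascribed to mast cells, and in mice the uterine epithelium is also known to express Hdc around implantation. The levels below therefore ask whether epithelium or mast cells carried the 2 transcripts in these libraries.

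The EL library held 43302286 unique molecular identifiers (UMIs, each standing for 1 captured transcript) in 10936 barcodes, and the EIS library 36069473 in 8848 barcodes. Filtering kept 9864 EL cells, at a median depth of 2345.5 UMIs, and 8068 EIS cells, at 2240.5. The libraries shared 27 barcodes. Cells were sorted into groups by fixed marker genes, never by HDC or SLC18A2, and a level is the gene's summed UMIs per 1000000 UMIs of the group (CPM). By these markers EL gave 6541 epithelial and 1627 ciliated cells and 42 stromal cells. EIS gave 2124 epithelial and 270 ciliated cells, 816 stromal cells, and 1768 cells gated by placental markers such as PAG6, so that library also held fetal trophoblast.

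Both transcripts were abundant in EL and scarce in EIS. HDC had 9796 UMIs in 1792 EL cells (18.2% of kept cells), against 138 UMIs in 96 EIS cells (1.19%). Its level in EL was 254 CPM (exact Poisson 95% interval 249 to 259) and in EIS 4.12 CPM (3.46 to 4.87), a ratio of 61.6 (52.1 to 73.4). SLC18A2 had 3625 UMIs in 24.3% of EL cells, against 26 UMIs in 0.297% of EIS cells. Its EL level was 93.9 CPM (90.9 to 97.04) and its EIS level 0.776 CPM (0.507 to 1.14), a ratio of 121 (82.5 to 186). Of 17153 features with at least 20 UMIs in kept cells, 8.35% were 4-fold or more higher in EL and 11% in EIS. These ratios compare 2 libraries of different cell mix.

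Within the epithelial gates alone the gap remained. HDC stood at 323 CPM in EL epithelium and 5.88 CPM in EIS epithelium, a ratio of 54.97 (43.7 to 70.2; 5.78 on the log2 scale). SLC18A2 stood at 112 CPM in EL epithelium and 0.322 CPM in EIS epithelium, where it rested on 4 UMIs, a ratio of 348 (136 to 1278; log2 8.44). Of 15254 features with at least 20 UMIs in these gates, 17.1% were 4-fold or more higher in EL and 6.61% in EIS, so a 4-fold difference was common. 92 features had a larger log2 ratio than HDC, and 14 had a larger one than SLC18A2. Features with 0 UMIs in EIS epithelium entered at a lower bound, against the level that 3 UMIs would give, so more may lie above. The median feature was itself 1.03 higher in EL on the log2 scale. Relative to that median HDC was 4.76 and SLC18A2 7.42 higher in EL.

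**Figure D1:**
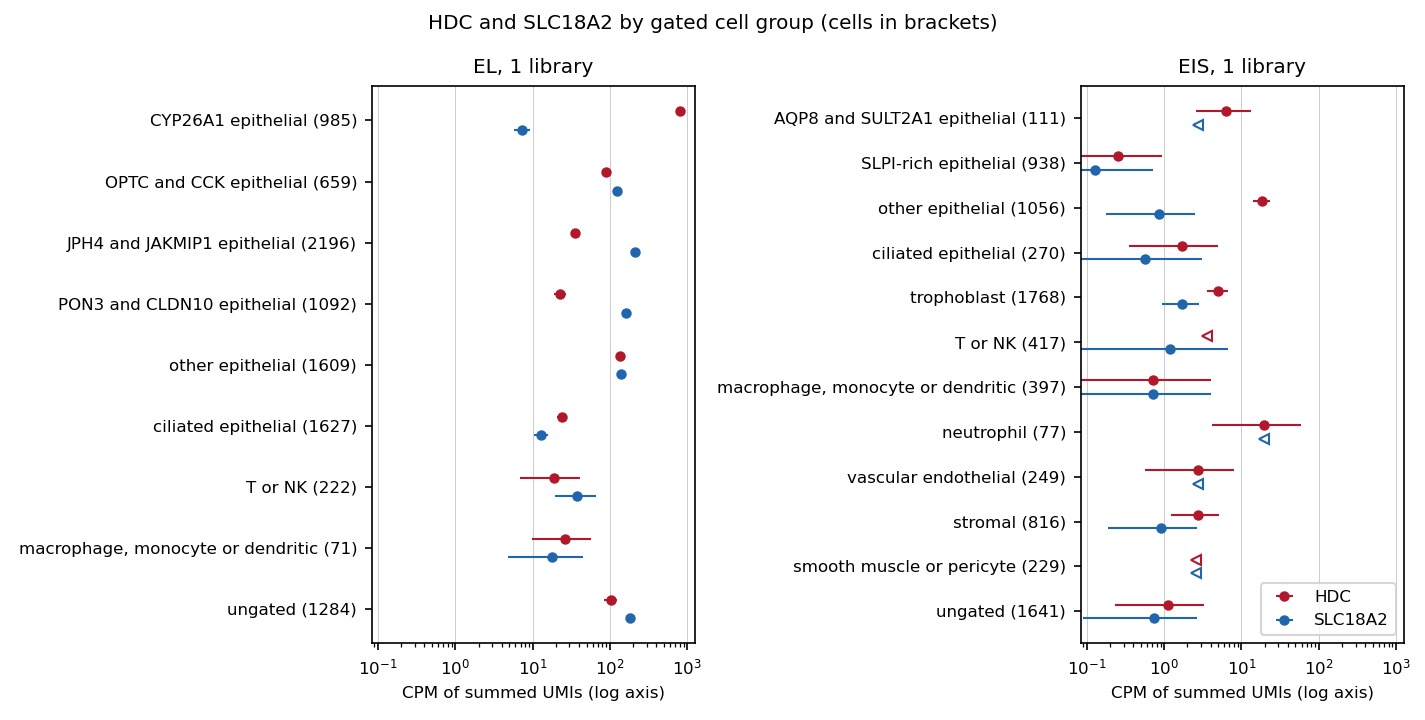
Levels of HDC (red) and SLC18A2 (blue) in gated cell groups of at least 50 cells, EL on the left and EIS on the right, as CPM of summed UMIs on a log axis. Bars are exact Poisson 95% intervals for counting error, and open triangles mark groups with 0 UMIs at the level that 3 UMIs would give. HDC peaks at 801 CPM in the EL CYP26A1 gate, where SLC18A2 has its lowest EL level of 7.31 CPM.

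In EL, 96.8% of the HDC UMIs (exact Clopper-Pearson 95% interval 96.4 to 97.2) and 90.8% of the SLC18A2 UMIs (89.8 to 91.7) lay in the epithelial gates. The ciliated gate added 1.79% of HDC and 2.57% of SLC18A2. The T or NK, B, plasma, macrophage and neutrophil gates together held 12 HDC UMIs (0.122%) and 17 SLC18A2 UMIs (0.469%). A split by keratin alone says less, because 8561 of the 9864 kept EL cells had a UMI of the keratins KRT8 or KRT18. These cells held 98.9% of HDC and 95.6% of SLC18A2 UMIs in EL, at 261 and 93.4 CPM. Cells with a UMI of PTPRC, the CD45 gene of all leukocytes, and no keratin UMI numbered 270 in EL. They held 4 UMIs of each gene, at 8.48 CPM. Among the EL keratin cells, 171 also had a PTPRC UMI. These 171 held 301 HDC UMIs (3.07%) at 353 CPM and 46 SLC18A2 UMIs (1.27%) at 53.99 CPM. The 1033 EL cells with neither had HDC at 96.7 CPM and SLC18A2 at 151 CPM. For SLC18A2 the keratin cells were thus close to all kept EL cells, at 93.9 CPM, and their share alone does not place it in epithelium. In EIS, keratin cells held 93.5% of the HDC and 88.5% of the SLC18A2 UMIs. They numbered 5523 of the 8068 kept EIS cells and include the trophoblast, and 697 of them also had a PTPRC UMI.

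Mast cells could be looked for only in part. Of 15 mast cell markers listed, 4 have a feature under their symbol, FCER1A, IL1RL1, GATA2 and LTC4S. No feature used here carries the symbols of KIT, CPA3, MS4A2 or the tryptases, while 16128 of the 26881 features carry no symbol at all. FCER1A encodes a chain of the high-affinity IgE receptor and IL1RL1 the interleukin 33 receptor, and either is also found on other leukocytes. FCER1A had 10 UMIs in EL and 17 in EIS, and IL1RL1 had 8 in EL and 9 in EIS. The 15 EL cells with a UMI of either held 0 HDC UMIs and 1 SLC18A2 UMI. The 20 such EIS cells held 0 of both. With so few cells, a count of 0 allows a share of up to 20% of such EL cells and 15% of such EIS cells with an HDC UMI (3 counts of the total).

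The other 2 mast markers were also found outside leukocytes. GATA2, a transcription factor of mast cells and, in mice, of the uterine epithelium, stood at 194 CPM in EL epithelium and 42.4 CPM in EIS epithelium. Its level was 251 CPM in the EL CYP26A1 gate and 166 CPM in the EL JPH4 and JAKMIP1 gate, and 45.3% of its EIS UMIs lay in trophoblast. LTC4S, leukotriene C4 synthase, was low, at 2.86 CPM in EL epithelium and 2.58 CPM in EIS epithelium. Summed over the 4 markers, the list was at 197 CPM in EL epithelium and 44.97 CPM in EIS epithelium, nearly all of it GATA2. FCER1A and IL1RL1 are at 0 in every epithelial gate because a cell with a UMI of either was put in its own gate first.

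Markers of other cells known for storing monoamines were checked in the same way. For platelets, which carry VMAT2, 4 of 7 markers have a feature. ITGA2B, the platelet integrin chain, was at 87.4 CPM in EL epithelium and 24.7 CPM in EIS epithelium, but GP9 was at 3.07 and 5.96 CPM and GP1BB had 10 UMIs in EL epithelium and 0 in EIS epithelium. Their summed level was 91.04 CPM in EL epithelium and 34.1 CPM in EIS epithelium. For basophils or eosinophils, EPX had 0 UMIs in both libraries, and CCR3 and CEBPE together had 11 UMIs in EL and 50 in EIS. For neuroendocrine cells, CHGA was at 0.341 CPM in EL epithelium and 15.5 CPM in EIS epithelium, and NEUROD1 was at 0 in both. No cell was gated as a platelet, basophil, eosinophil or neuroendocrine cell. For neuroendocrine cells this was fixed in advance. The gate asked for 2 distinct markers, and NEUROD1, the only one with a feature besides CHGA, had 0 UMIs in either library. With EPX at 0, a basophil or eosinophil had to hold UMIs of both CCR3 and CEBPE, which were scarce. The presence of these cells was therefore not tested for neuroendocrine cells and hardly tested for basophils or eosinophils.

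**Figure D2:**
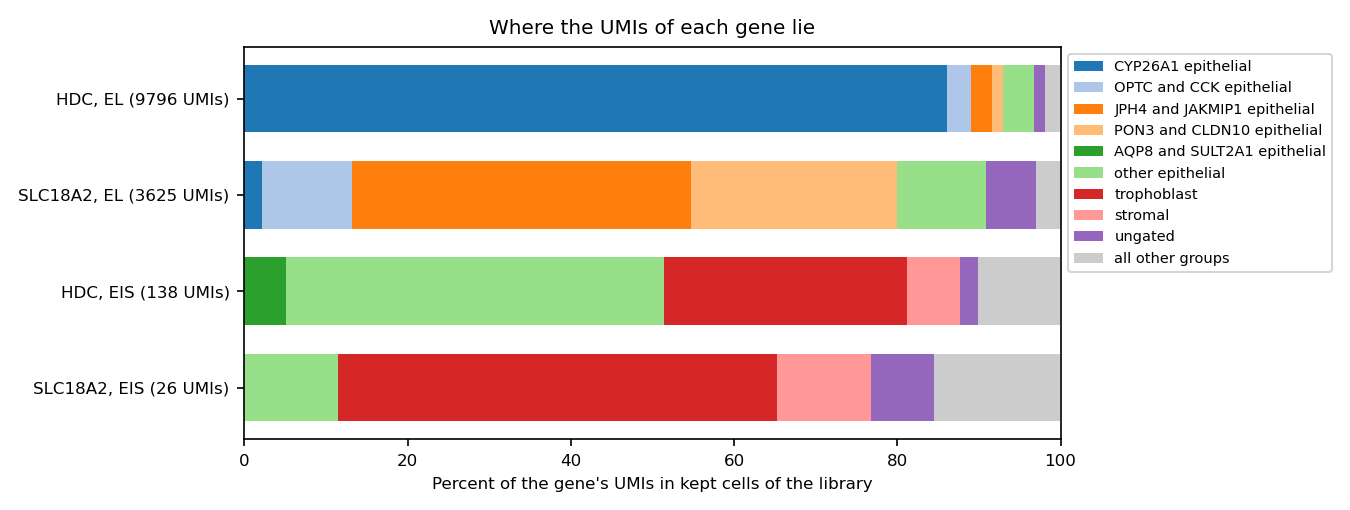
Share of the UMIs of HDC and SLC18A2 in each gated cell group, in percent of the gene's UMIs in kept cells, EL bars above EIS bars. In EL the CYP26A1 gate holds 86.1% of HDC and 2.12% of SLC18A2, while the JPH4 and JAKMIP1 gate holds 2.59% of HDC and 41.5% of SLC18A2.

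Although both genes were epithelial in EL, they lay in different epithelial cells. HDC was concentrated in cells gated by CYP26A1, a retinoic acid-degrading enzyme. The 985 cells of that gate held 8436 HDC UMIs, 86.1% of the library's, at 801 CPM (784 to 818). HDC was found in 82.7% of them, with a median of 7 UMIs per cell, a 10th percentile of 0, a 90th percentile of 19 and a maximum of 54. In cells thinned to 1000 UMIs each, which removes differences of depth, the share with an HDC UMI was 48.5% (45.3 to 51.8).

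The same CYP26A1 gate held only 77 SLC18A2 UMIs, 2.12% of the library's, at 7.31 CPM (5.77 to 9.14). That is below the level in T or NK cells of the same library, 37.4 CPM (19.3 to 65.3) on 12 UMIs. Whether it is background was not tested. The gate joined cells of unequal depth, so it was split at 5000 UMIs after its values had been seen. In its 641 deeper cells HDC was at 812 CPM and SLC18A2 at 3.45 CPM. In its 344 shallower cells HDC was at 637 CPM and SLC18A2 at 64.8 CPM, and these also held the gland transcript AQP3 at 854 CPM, against 60.7 CPM in the deeper cells.

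SLC18A2 was highest in cells gated by JPH4 and JAKMIP1, whose 2196 cells held 1503 UMIs, 41.5% of the library's, at 209 CPM (199 to 219.8). PON3 and CLDN10 cells followed at 164 CPM (154 to 175) and held 25.2%. OPTC and CCK cells stood at 125 CPM (113 to 138) and held 11.1%. The order held in thinned cells, of which 21.1%, 16.8% and 14.96% had an SLC18A2 UMI, though the intervals of the last 2, 14.6 to 19.2 and 12.3 to 17.98, overlap. The first 2 gates are not sharply apart, as 2722 of their 3288 cells held UMIs of both marker pairs. Their levels differed by a ratio of 1.27 (1.17 to 1.39), which is small beside the ratio of 28.6 (22.7 to 36.4) between JPH4 and JAKMIP1 cells and CYP26A1 cells. Per cell SLC18A2 was sparse, with a median of 0 UMIs, a 90th percentile of 2 and a maximum of 6 in JPH4 and JAKMIP1 cells and 9 in PON3 and CLDN10 cells.

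HDC in these 3 gates was lower by far. It was at 89.3 CPM (79.3 to 100.2) in OPTC and CCK cells, 35.3 CPM (31.1 to 39.9) in JPH4 and JAKMIP1 cells and 22.6 CPM (18.9 to 26.9) in PON3 and CLDN10 cells. CYP26A1 cells exceeded OPTC and CCK cells 8.97-fold (7.97 to 10.1) and JPH4 and JAKMIP1 cells 22.7-fold (20.01 to 25.8). T or NK cells, which should lack HDC, had 6 UMIs in 222 cells (2.70%, median depth 1327 UMIs) at 18.7 CPM (6.86 to 40.7). The levels of JPH4 and JAKMIP1, PON3 and CLDN10, ciliated (24.2 CPM) and macrophage (26.5 CPM) cells lie inside that interval, and by level they do not stand apart from T or NK cells beyond counting error. The OPTC and CCK level lies above it, by 4.77-fold (2.17 to 13.1).

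HDC was also counted per CYP26A1 UMI, since free RNA from the CYP26A1 cells would carry both in 1 ratio. HDC had 0.171 UMIs per CYP26A1 UMI in the CYP26A1 gate (0.167 to 0.175), 0.182 in macrophages (0.0623 to 0.439) and 0.316 in T or NK cells (0.103 to 0.822). It had 2.08 in OPTC and CCK cells (1.69 to 2.57), 0.738 in JPH4 and JAKMIP1 cells (0.625 to 0.871), 0.558 in PON3 and CLDN10 cells (0.445 to 0.696) and 0.274 in ciliated cells (0.23 to 0.324). These 4 groups had more HDC per CYP26A1 UMI than the CYP26A1 gate beyond counting error, while the intervals of macrophages and T or NK cells include its ratio. However, epithelial cells high in CYP26A1 were put in the CYP26A1 gate. That by itself raises the ratio in the OPTC and CCK, JPH4 and JAKMIP1, and PON3 and CLDN10 gates. The part of free RNA was not tested. The 1609 epithelial cells in no subtype, with a median of 986 UMIs, had HDC at 135 CPM and SLC18A2 at 140.0 CPM. The 1284 ungated EL cells were shallower still, at a median of 738 UMIs, with HDC at 102 CPM and SLC18A2 at 183 CPM.

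**Figure D3:**
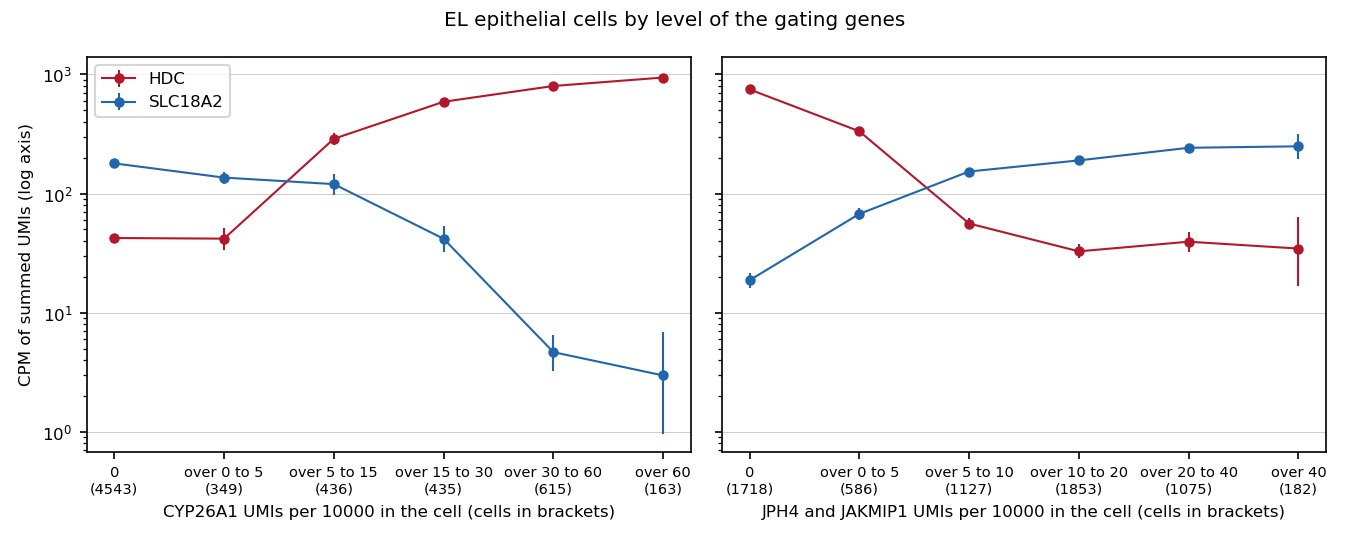
HDC (red) and SLC18A2 (blue) in EL epithelial cells ordered by their UMIs per 10000 of CYP26A1 (left) and of JPH4 plus JAKMIP1 (right), as CPM of summed UMIs on a log axis with exact Poisson 95% intervals. Along CYP26A1 HDC climbs to 941 CPM while SLC18A2 drops to 2.97 CPM, and along JPH4 plus JAKMIP1 the 2 genes run the other way.

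The separation was graded along the gating genes. Cells with no CYP26A1 UMI had HDC at 42.3 CPM and SLC18A2 at 179 CPM. From over 5 to 15, over 15 to 30, over 30 to 60 and over 60 CYP26A1 UMIs per 10000, HDC stood at 288, 589, 799 and 941 CPM. Over the same 4 bands SLC18A2 stood at 119.9, 41.7, 4.66 and 2.97 CPM. HDC therefore ran up and SLC18A2 ran down with CYP26A1. Along JPH4 plus JAKMIP1, cells with none had SLC18A2 at 18.7 CPM and cells with over 40 per 10000 had it at 249 CPM, while HDC was at 748 and 34.5 CPM in the same bands. The bands differ in depth, with medians between 1244 and 12031 UMIs along CYP26A1.

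Cells just inside the CYP26A1 gate, at 15 to 20 per 10000, numbered 58 and had HDC at 444 CPM and SLC18A2 at 28.8 CPM. Cells just outside, at 10 to 15 per 10000 with enough UMIs, numbered 37 and had HDC at 355 CPM and SLC18A2 at 79.4 CPM. Both sets lie between the gates in both genes.

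Few EL epithelial cells held both transcripts. Of 6541 cells, 1539 had an HDC UMI, 2120 an SLC18A2 UMI and 281 both. SLC18A2 was found in 18.3% of cells with HDC (16.4 to 20.3) and in 36.8% of cells without it (35.4 to 38.1). In thinned cells the shares were 5.34% (3.79 to 7.28) and 16.5% (15.5 to 17.6). Inside a single gate the gap in percentage points was smaller or absent. Among thinned JPH4 and JAKMIP1 cells, SLC18A2 was found in 20.99% of those with HDC and 21.1% of those without. Among thinned OPTC and CCK cells the shares were 8.51% (2.37 to 20.4) and 15.5% (12.6 to 18.7), with intervals that overlap. Those of thinned PON3 and CLDN10 cells, 7.69% (0.946 to 25.1) and 17.01% (14.8 to 19.4), also overlap. In CYP26A1 cells as counted the shares were 5.77% (4.27 to 7.6) and 12.9% (8.29 to 18.9), which do not overlap. Thinned, they were 1.34% (0.493 to 2.89) and 2.53% (1.31 to 4.37), which do.

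Marker levels describe the 2 kinds of EL cell further. The genes in this paragraph were picked after their values had been seen. WNT7A, a Wnt ligand known from the luminal epithelium of the mouse uterus, stood at 227 CPM in CYP26A1 cells and 1.95 CPM in JPH4 and JAKMIP1 cells. FOXA2, a transcription factor known from mouse uterine glands, stood at 15.1 CPM in CYP26A1 cells and 243 CPM in JPH4 and JAKMIP1 cells. The progesterone receptor PGR was at 17.2 CPM in CYP26A1 cells and 81.6 CPM in JPH4 and JAKMIP1 cells, and the oestrogen receptor ESR1 was at 81.7 and 588 CPM. Between these 2 gates HDC thus lay with WNT7A, and SLC18A2 with FOXA2 and the steroid receptors. This did not extend to every EL gate. Ciliated cells had FOXA2 at 158 CPM and ESR1 at 446 CPM, but SLC18A2 at only 12.9 CPM. OPTC and CCK cells had WNT7A at 2.18 CPM and HDC at 89.3 CPM.

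In EIS both transcripts were scarce, and HDC was uneven between cells, with 58 of its 138 UMIs in 16 cells. The EIS epithelium had no cell in the CYP26A1, OPTC and CCK, or JPH4 and JAKMIP1 gates, and 19 cells in the PON3 and CLDN10 gate, which held 0 UMIs of both genes. HDC had 73 UMIs in EIS epithelium, 64 of them in 29 of the 1056 cells of no subtype (18.5 CPM, 14.2 to 23.6). AQP8 and SULT2A1 cells had 7 HDC UMIs (6.4 CPM, 2.57 to 13.2) and the 938 SLPI-rich cells had 2 (0.257 CPM, 0.0312 to 0.93). T or NK cells had 0 HDC UMIs in 417 cells, which allows a share of up to 0.719% of cells on the same rule. Trophoblast cells had 41 HDC UMIs at 5.01 CPM (3.59 to 6.79).

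SLC18A2 had 26 UMIs in all EIS cells, 14 of them in trophoblast (1.71 CPM, 0.934 to 2.87) and 4 in epithelium. Its EIS levels by group lay between 0 and 1.71 CPM in groups of at least 50 cells, and their intervals overlap except those of trophoblast and SLPI-rich cells (0.00326 to 0.717). Between like-named groups, EL ciliated cells exceeded EIS ciliated cells 14.3-fold for HDC (4.82 to 70.1) and 22.8-fold for SLC18A2 (4 to 911). EL macrophages exceeded EIS macrophages 36.8-fold for HDC (4.47 to 1693) on 6 EL UMIs and 1 EIS UMI. These gaps outside the epithelial gates run in the same direction as the gaps in epithelium, and the part of free RNA in them was not tested.

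Leaving the CYP26A1 cells out, HDC was at 55.8 CPM in the other EL epithelium, against 5.88 CPM in EIS epithelium, which is 3.24 on the log2 scale. SLC18A2 without those cells was at 171 CPM in EL epithelium and 0.322 CPM in EIS epithelium, log2 9.05. In CPM most of the HDC gap between the libraries therefore lay in the CYP26A1 cells. On the log2 scale 3.24 of the 5.78 remained without them. The SLC18A2 gap lay outside the CYP26A1 cells.

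The 68 listed genes of histamine and monoamine handling were set beside the 2 members. Of these, 48 have a feature under their symbol and 31 had at least 20 UMIs in the epithelial gates. Of the 31, 9 were 4-fold or more higher in EL (29.03%, beside 17.1% of all features) and 2 were 4-fold or more higher in EIS (6.45%, beside 6.61%). The list's median log2 ratio was 0.73, below the 1.03 of all features. Scaled to the median feature, 5 were 4-fold or more higher in EL (beside 6.54% of all features) and 4 in EIS (beside 10.8%). 14 of the 31 lay above the median feature.

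**Figure D4:**
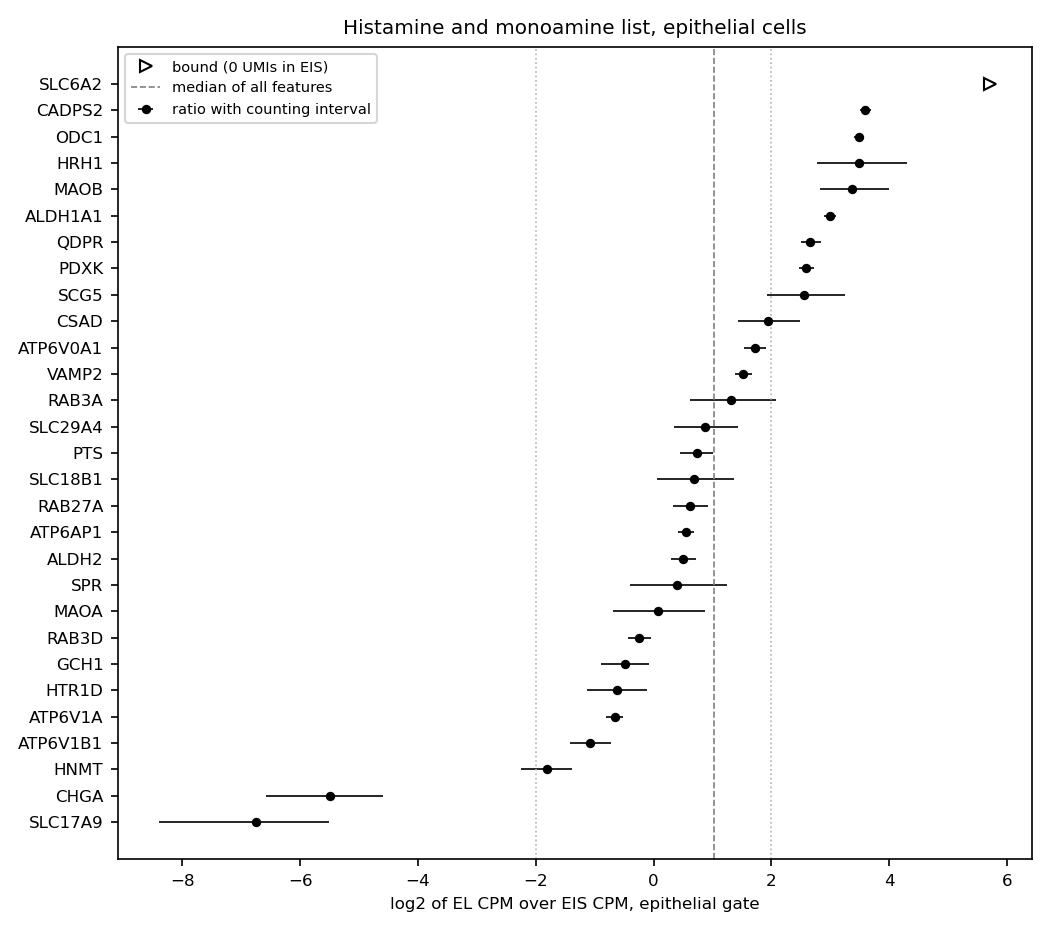
log2 ratio of EL over EIS in the epithelial gates for listed genes with at least 20 UMIs, with exact conditional 95% intervals. An open triangle is a lower bound against 0 EIS UMIs, the dashed line is the median of all features at 1.03, and dotted lines mark 4-fold. SLC6A2, CADPS2, ODC1, HRH1 and MAOB lie furthest to the EL side, and SLC17A9 and CHGA to the EIS side.

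Among the histamine receptors, HRH1, the H1 receptor, was the one with counts. It stood at 14.4 CPM in EL epithelium and 1.29 CPM in EIS epithelium, a ratio of 11.2 (6.81 to 19.7). In EL, 404 of its 434 UMIs (93.1%) lay in the CYP26A1 gate, at 38.4 CPM (34.7 to 42.3), so the receptor and the histamine-making enzyme shared a cell kind. The rest of the EL epithelium had HRH1 at 1.01 CPM (0.609 to 1.58), close to EIS epithelium. In EIS the vascular endothelium had the most, at 49.6 CPM (37.2 to 64.7) and 35.3% of the library's HRH1 UMIs. Within the CYP26A1 gate, HRH1 was found in 30.2% of cells with HDC and 2.35% of cells without it, but their median depths were 11868 and 1306 UMIs. HRH2 had 11 UMIs in each library, HRH4 had 5 in EL and 3 in EIS, and HRH3 has no feature under its symbol.

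The enzymes that remove histamine and its products were split between the libraries. HNMT, which methylates histamine inside cells, was at 2.63 CPM in EL epithelium and 9.19 CPM in EIS epithelium, 3.5-fold higher in EIS (2.6 to 4.74). Its highest levels were in macrophages, at 110.2 CPM (71.3 to 163) for EL and 121 CPM (104 to 141) for EIS, and in EIS neutrophils at 139.6 CPM (86.4 to 213). AOC1, the diamine oxidase that degrades histamine outside cells, had 1 UMI in EL and 0 in EIS. MAOB, which oxidises methylhistamine and other amines, was at 22.6 CPM in EL epithelium and 2.18 CPM in EIS epithelium, a ratio of 10.4 (7.06 to 15.9). In EL it stood at 35.9 CPM in PON3 and CLDN10 cells, 32.3 CPM in JPH4 and JAKMIP1 cells, 14.4 CPM in CYP26A1 cells and 10.6 CPM in OPTC and CCK cells.

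MAOA, the related oxidase, was at 1.77 CPM in EL epithelium and 1.69 CPM in EIS epithelium. The aldehyde dehydrogenase ALDH1A1 was at 591 CPM in EL epithelium and 74.3 CPM in EIS epithelium, a ratio of 7.96 (7.45 to 8.51). ALDH2, of the same family, was at 29.7 and 20.95 CPM, which is below the median shift of all features.

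Among the surface carriers, SLC6A2, the noradrenaline transporter, stood out by its pattern. It had 375 UMIs in EL epithelium (12.8 CPM) and 0 in EIS epithelium, at least 52.9-fold higher against the level that 3 EIS UMIs would give. Its EL levels were 22.9 CPM in JPH4 and JAKMIP1 cells, 19.9 CPM in OPTC and CCK cells, 15.1 CPM in PON3 and CLDN10 cells and 1.14 CPM in CYP26A1 cells, the same groups as SLC18A2. SLC29A4, a low-affinity monoamine transporter, was at 5.46 CPM in EL epithelium and 2.98 CPM in EIS epithelium and was highest in ciliated cells, at 41.2 CPM for EL and 26.5 CPM for EIS. SLC22A3, which carries histamine in several tissues, had 0 UMIs in EL and 177 in EIS, 83.1% of these in trophoblast at 17.9 CPM (15.2 to 21.1).

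Of the other vesicular carriers, SLC18A1, the VMAT1 gene, had 6 UMIs in EL and 25 in EIS, 14 of the EIS UMIs in macrophages. SLC17A9, the vesicular nucleotide transporter, ran against SLC18A2, at 0.17 CPM in EL epithelium and 18.4 CPM in EIS epithelium. SLC18B1, a polyamine transporter, was at 3.38 and 2.1 CPM, below the median shift of all features.

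The enzymes that make the other monoamines were at or near 0. TH, the tyrosine hydroxylase that starts catecholamine synthesis, had 1 UMI in each epithelium. DDC, which makes dopamine and serotonin from their precursors, had 8 in each, and TPH2, the neuronal tryptophan hydroxylase, had 0 UMIs in either library. TPH1 and DBH have no feature under their symbols. Among the genes of the cofactor tetrahydrobiopterin, QDPR was at 152 CPM in EL epithelium and 23.9 CPM in EIS epithelium, a ratio of 6.34 (5.64 to 7.16), and was highest in CYP26A1 cells at 226 CPM. GCH1, the entry enzyme of the same cofactor, was at 4.64 CPM in EL epithelium and 6.53 CPM in EIS epithelium.

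PDXK, the kinase that makes pyridoxal phosphate, the cofactor of HDC, was at 260.2 CPM in EL epithelium and 43.3 CPM in EIS epithelium, a ratio of 6.01 (5.51 to 6.58). In EL it stood at 348 CPM in CYP26A1 cells, 339 CPM in OPTC and CCK cells and 190.2 CPM in JPH4 and JAKMIP1 cells. Epithelial cells of no subtype had more HDC than OPTC and CCK cells, 135 against 89.3 CPM, but less PDXK, at 219 CPM. ODC1, the decarboxylase that starts polyamine synthesis, was at 1287 CPM in EL epithelium and 115 CPM in EIS epithelium, a ratio of 11.2 (10.6 to 11.8). In EL, ODC1 was at 2651 CPM in CYP26A1 cells, 1204 CPM in OPTC and CCK cells and 319 CPM in JPH4 and JAKMIP1 cells, the order of HDC among these gates. Epithelial cells of no subtype broke that order, with ODC1 at 777 CPM.

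**Figure D5:**
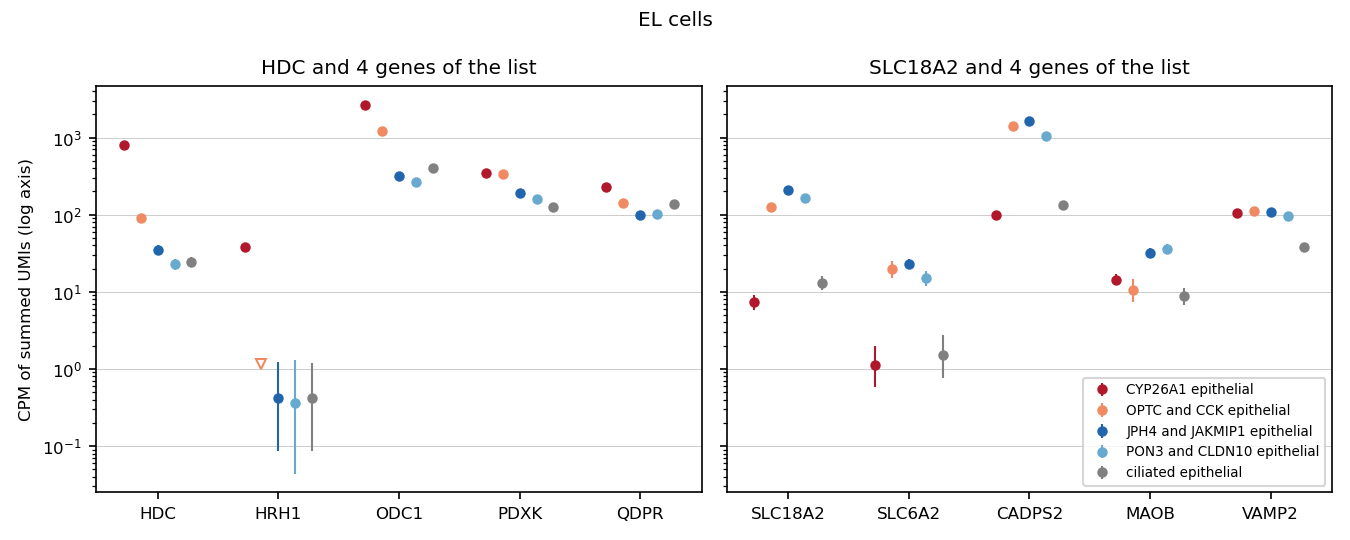
Levels of HDC with HRH1, ODC1, PDXK and QDPR (left) and of SLC18A2 with SLC6A2, CADPS2, MAOB and VAMP2 (right) in 5 gated groups of the EL library, as CPM of summed UMIs on a log axis with exact Poisson 95% intervals. An open triangle is the upper limit of a group with 0 UMIs. The CYP26A1 gate (red) is highest for the genes on the left, and lowest for SLC18A2, SLC6A2 and CADPS2.

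Among the genes of vesicles and their release, CADPS2, a priming factor for dense-core vesicles, was at 894 CPM in EL epithelium and 74.2 CPM in EIS epithelium, a ratio of 12.05 (11.3 to 12.9). Like SLC18A2, it was highest in EL in JPH4 and JAKMIP1 cells, at 1631 CPM, and low in CYP26A1 cells, at 100.4 CPM. Unlike SLC18A2, it was higher in OPTC and CCK cells, at 1396 CPM, than in PON3 and CLDN10 cells, at 1062 CPM. SCG5, a granule protein, was at 10.4 CPM in EL epithelium and 1.77 CPM in EIS epithelium, a ratio of 5.85 (3.79 to 9.47). CHGA, the granule protein chromogranin A, ran the other way, 45.4-fold higher in EIS epithelium (24.1 to 96.2), and 82.3% of its EIS UMIs lay in trophoblast.

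The proton pump that powers vesicular transporters did not change as a unit. ATP6V0A1 was at 70.2 CPM in EL epithelium and 21.3 CPM in EIS epithelium, and ATP6AP1 at 73.96 and 50.6 CPM. ATP6V1A was at 32.2 CPM in EL epithelium and 50.9 CPM in EIS epithelium, and ATP6V1B1 at 5.05 and 10.6 CPM. Relative to the median shift of all features only ATP6V0A1 of these 4 was higher in EL. VAMP2, a vesicle fusion protein, was at 104 CPM in EL epithelium and 36.3 CPM in EIS epithelium and was even across the EL epithelial gates, between 96.6 and 110.4 CPM. RAB3D, a granule GTPase, was at 21.9 and 25.9 CPM.

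The features most like each member were ranked by Pearson's r of log2(CPM + 1) over the 19 gated groups of at least 50 cells, 8 in EL and 11 in EIS, among 8353 named features. Groups of 1 library share its depth and free RNA, so r is a description. HDC was most like SMPD3, a sphingomyelinase (r = 0.91), ARG2, a mitochondrial arginase (0.91), SLC5A1, the sodium-glucose carrier (0.89), and RPRML (0.88). MFSD11, PLEKHA3, SPINK2, NEIL2, ALDH1A1 and CDH17 followed at 0.87 to 0.85. SMPD3 stood at 186 CPM in EL CYP26A1 cells, 8.2 CPM in EL JPH4 and JAKMIP1 cells and 0.403 CPM in EIS epithelium, and SLC5A1 at 258, 3.89 and 0.725 CPM.

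SLC18A2 was most like SLC6A2 (r = 0.98), followed by CPN1 and PON3 (0.97) and by LYPD1, JPH4, LRRN1, ST6GALNAC1, SUCO, WWP2 and SPDEF (0.96). PON3 and JPH4 were gating genes, so their place was partly set by the gates. CPN1, a carboxypeptidase chain, stood at 66.6 CPM in EL JPH4 and JAKMIP1 cells, 11.7 CPM in EL CYP26A1 cells and 0.645 CPM in EIS epithelium. HDC and SLC18A2 correlated with each other at 0.66 over the 19 groups, which contrasts EL with EIS, and at -0.27 over the 8 EL groups.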

How the data were processed

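The authors deposited a matrix of raw UMI counts for each library, per the file headers and the whole-number values, with no normalization. Cell Ranger 2.1.1 is named in the submitters' processing notes and cellranger 6.1.0 in the file headers, and neither label nor header states a genome build. Single-cell droplets count 3' transcript ends, so levels are compared within a gene, not between genes.

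Barcodes with at least 500 UMIs and 300 genes were kept. Scrublet in scanpy 1.11.5 scored doublets per library. Its automatic threshold marked 0 EL and 1 EIS barcodes, so the top 0.8% per 1000 barcodes was removed instead, 933 in EL and 601 in EIS. Of the filtered EL CYP26A1 gate this took 136 of 1121 cells (12.1%), against 5.39% of the JPH4 and JAKMIP1 gate.

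Each cell was gated on its own marker UMIs. Epithelial cells had at least 2 UMIs and 5 per 10000 over the 5 of 12 listed markers that have a feature, among them KRT8, KRT18, CLDN7 and ESRP1. CYP26A1 or AQP8 with SULT2A1 needed 3 UMIs and 15 per 10000, the SLPI-rich gate 30% of UMIs, and the other subtypes 2 UMIs and 5 per 10000. Ciliated and trophoblast cells needed 3 UMIs, 2 distinct markers and 20 per 10000. Other classes needed 3 UMIs, 2 distinct markers and 3 times the mean level of both libraries. The planned mast cell rule asked for KIT with a second marker and could not be applied, so any FCER1A or IL1RL1 UMI was used. The 2 members, the marker and gene lists and the gates were chosen with earlier results of these data known.

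UMIs were summed per library and group and scaled to CPM. Levels have exact Poisson, shares exact Clopper-Pearson and ratios exact conditional intervals, all at 95%. A group at 0 was given the floor of 3 UMIs. Ratios over all features used those with at least 20 UMIs and a 4-fold limit, with no test, since each group is 1 library. Shares of cells were repeated in cells thinned to 1000 UMIs. Some listed items that are counted are not reported here by name. The named genes are both members, every other listed gene that acts directly on histamine or reached 20 CPM in either epithelium, and the 10 features most like each member among those with at least 100 UMIs. Listed genes outside that rule (SLC6A2, SLC29A4, SLC22A3, SLC18A1, SLC17A9, SLC18B1, TH, DDC, TPH2, GCH1, SCG5, CHGA and ATP6V1B1), and the genes of the marker paragraph, were named after their values were seen. The contrast step was tested on simulated counts. Other tools were leidenalg 0.10.2, matplotlib 3.10.9, pandas 2.3.3, scipy 1.17.1, numpy 2.4.6 and Python 3.11.15. Sequences of the 2 genes are not used here.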

Additional observations from a re-analysis of the deposited data

How the results depend on the processing

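HDC and SLC18A2 were higher in EL under each of the 9 alternatives run for their ratios. Over all 12 alternatives 66 values were recomputed. Of these, 45 stayed within the counting interval of the reported value and 21 moved beyond it. For the list count the limit was 1.5 times the reported value. Of the ratios, 0 changed direction, while shares and the list count have no direction to change. Some of the 45 could not move. The ratios over all kept cells use no gate, so the stricter gates and the clusters left them as they were. Scaled to the median feature, the log2 ratio of HDC in epithelium was 4.76, and over all kept cells HDC was 5.39 and SLC18A2 6.36. Without the 5 features that exceed 1% of a library, HDC was 4.96 in epithelium and 5.50 in all cells. With the stricter gates HDC was 5.13, and without the CYP26A1 cells, an alternative added after seeing the data, it was 3.24. The EL epithelial share of HDC was 97.8% at 1000 UMIs and 500 genes, 94.9% with the stricter gates, 98.8% with Leiden clusters and 98.9% in keratin cells. That of SLC18A2 was 94.2% at 1000 UMIs and 500 genes, 88.2% with no doublets removed, 78.98% with the stricter gates, 97.3% with clusters and 95.6% in keratin cells. The EL share of SLC18A2 in the FCER1A or IL1RL1 gate, 0.0276%, was 0 with the stricter gates and with clusters, where no cluster took that name. In EIS, keratin cells, also added after seeing the data, held 93.5% of HDC and 88.5% of SLC18A2. They numbered 5523 of the 8068 kept EIS cells, so they include trophoblast and cells of other gates. Of the 31 listed genes tested, 9 were 4-fold or more higher in EL (beside 17.1% of all features). Scaled to the median feature the count was 5 (beside 6.54%). Without the 5 features it was 6 (beside 7.85% of all features), with 3 higher in EIS (beside 9.8%). The alternative that drops epithelial cells with a mast marker UMI other than GATA2 or LTC4S removed no cell, since cells with FCER1A or IL1RL1 already had a gate of their own. Its ratios could therefore not move either. No paired analysis was possible because each group is 1 library. In EIS, 26 SLC18A2 UMIs limit what can be said of its cell type.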

Other observations

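HDC in EIS was uneven between cells. 16 EIS cells had 2 or more HDC UMIs, up to 13 in a cell, and together held 58 of the library's 138. By gate, 10 were epithelial cells of no subtype, 2 AQP8 and SULT2A1 cells, 3 trophoblast and 1 neutrophil, and their median depth was 17986.5 UMIs, against 2800.5 in the other EIS epithelial cells. They were picked by HDC itself, and the genes below were chosen after their values were seen, so the comparison is a description. WNT7A was at 68.04 CPM in these cells (43.1 to 102) and 6.51 CPM in the other EIS epithelial cells (5.15 to 8.11). FOXA2 was at 5.92 CPM (0.717 to 21.4) and 52.6 CPM (48.6 to 56.9). TSPO, a mitochondrial cholesterol-binding protein, was at 1030 and 116 CPM, and LGALS3, galectin 3, at 2926 and 697 CPM. In EL CYP26A1 cells the same genes stood at 227 CPM for WNT7A, 15.1 CPM for FOXA2, 10599 CPM for TSPO and 2782 CPM for LGALS3. CYP26A1 itself was at 8.88 CPM in the 16 EIS cells (1.83 to 25.9), against 4683 CPM in the EL gate. STC1, known from pig uterine epithelium, was at 79.9 CPM in the 16 EIS cells, 4.53 CPM in other EIS epithelium and 7.12 CPM in EL CYP26A1 cells.

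When cells were clustered instead of gated, 1 EIS cluster of 188 cells held 64 of the 138 HDC UMIs, and 1 EL cluster of 676 cells held 7956 of the 9796.

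SLC27A2, a fatty acid carrier next to HDC in the RefSeq gene order of another pig assembly, Sscrofa11.1, went the other way from HDC, at 3.85 CPM in EL epithelium and 70.7 CPM in EIS epithelium (log2 -4.20).

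Over the 8 EL groups alone the features most like HDC were FAM57B and RNF223 (r = 0.99), and the one most like SLC18A2 was ZWILCH (0.99), none of which led the lists over 19 groups.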
